A study of Homo sapiens with 6 samples.

Results

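The 9 genes described here make, sense, carry and clear extracellular adenosine, and they were followed in A2780 cells, a human ovarian cancer cell line, with and without recombinant human CRMP2 (r-CRMP2). They were chosen by name: NT5E and ENTPD1 for production, ADORA1, ADORA2A and ADORA2B for sensing, SLC29A1 and SLC29A2 for transport, and ADA and ADK for clearance. All 9 were found among the 44591 genes counted in each library. The cells, labelled wild type and of ovarian origin, were grown in DMEM with serum. One group of 3 samples was left untreated, and the other group of 3 received 40 ng/ml r-CRMP2 for 48 h. The untreated samples carried the same time label. A2780 is an established line without stroma or immune cells of its own, and the treatment was a purified protein added to the medium. The labels did not say whether the replicates were separate cultures, so the p-values measure only the spread between these samples. The question was whether the adenosine genes differed between treated and untreated cells.

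Outside the cell, adenosine is made from ATP in 2 steps. ENTPD1, known as CD39, removes phosphates from ATP and ADP to give AMP, and NT5E, known as CD73, turns AMP into adenosine. Adenosine then acts on receptors coupled to G proteins. ADORA1 is coupled to inhibitory G proteins and lowers cAMP, and ADORA2A and ADORA2B raise it. The equilibrative transporters SLC29A1 and SLC29A2 carry adenosine across the membrane, where ADK phosphorylates it back to AMP and ADA deaminates it to inosine. The pathway is known in tumors for its dampening of immune cells, and in hypoxic tissue NT5E and ADORA2B are textbook targets of hypoxia-inducible factors, while SLC29A1 and ADK are described as repressed.

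Each library held between 21888530 and 25711353 counts, of which the 9 genes together took between 0.0269% and 0.0283%. Levels are given as CPM, read counts scaled to a common library total with TMM factors, where 1 read was worth between 0.0360 and 0.0506 CPM. KRT7, KRT8 and KRT18, keratins of simple epithelia, were abundant, whereas EPCAM (6.30 TPM in untreated cells) and PAX8 (2.44 TPM) were low and CDH1 and WT1 had at most 5 counts in any library. TPM is the deposited level, corrected for gene length and for the size of the library. Summed over each marker list, the 8 ovarian epithelial markers reached 4199 to 4409 TPM in untreated and 3436 to 3767 TPM in r-CRMP2 libraries. The sum is TPM and not scaled by TMM. In the edgeR fit with TMM scaling KRT7 (log2 fold change -0.21) and MUC16 (-0.36) were lower and KRT18 was higher (0.20). KRT8 (0.03), EPCAM (0.32) and PAX8 (-0.11) did not pass the threshold, and CDH1 and WT1 were not tested. The 9 fibroblast markers reached 228 to 268 and 160 to 172 TPM, most of it from COL1A1, a collagen chain. In the same fit COL1A1 and PDGFRB were lower (-0.41 each), while COL1A2 (0.35), LUM (0.53) and PDGFRA (0.46) were higher. The 6 leukocyte markers reached 31.1 to 36.1 and 79.4 to 80.4 TPM, nearly all of it from CD68, a lysosomal protein, while PTPRC and CD3E had at most 4 counts in any library. The 4 endothelial markers reached 3.61 to 3.94 and 0.649 to 1.08 TPM. No listed marker was at 0 in all 6 libraries. The part of these markers in the adenosine gene results was not tested, and in bulk RNA fewer cells of a type and less RNA per cell cannot be told apart.

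In r-CRMP2-treated cells, NT5E, ADA and SLC29A1 were higher, by 1.47-, 1.61- and 1.44-fold, and ENTPD1, ADORA1 and SLC29A2 were lower, at 0.576, 0.400 and 0.654 of the untreated level. ADK was slightly higher, by 1.14-fold, a call that was lost or turned under other settings. ADORA2A and ADORA2B did not pass the threshold. Thus 4 of the 9 genes were higher and 3 lower at an adjusted p-value threshold of 0.05 in the quasi-likelihood test of edgeR, adjusted after Benjamini and Hochberg over all 16222 genes tested, the test behind every adjusted p given here. All 9 genes passed the filter on low counts. In the same comparison 28.2% of the genes tested were higher and 30.1% lower, so calls were common among all genes and the share among the adenosine genes is no result about them. At the further threshold of 1 on the log2 fold change, ADORA1 was the 1 gene past both, and it was lower. Past both thresholds 5.12% of all genes tested were higher and 8.86% lower. The groups did not overlap for 6 of the 9 genes, against 64.2% of all genes tested. Over the 9 genes the log2 fold changes had a median of 0.16, and over all genes tested of -0.03.

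The scaling moved every fold change. With library size alone, the median over all genes tested was -0.34, and 2171 genes were higher and 8449 lower, against 4574 and 4875 with TMM. Under that scaling, NT5E, ADA and SLC29A1 were still higher, with log2 fold changes of 0.25, 0.38 and 0.21 (adjusted p = 0.0407, 0.000436 and 0.00427 from the edgeR test). ENTPD1, ADORA1 and SLC29A2 were still lower, with log2 fold changes of -1.11, -1.63 and -0.92. ADK and ADORA2B turned to the other direction, with log2 fold changes of -0.13 and -0.14, neither past the threshold.

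**Figure D1:**
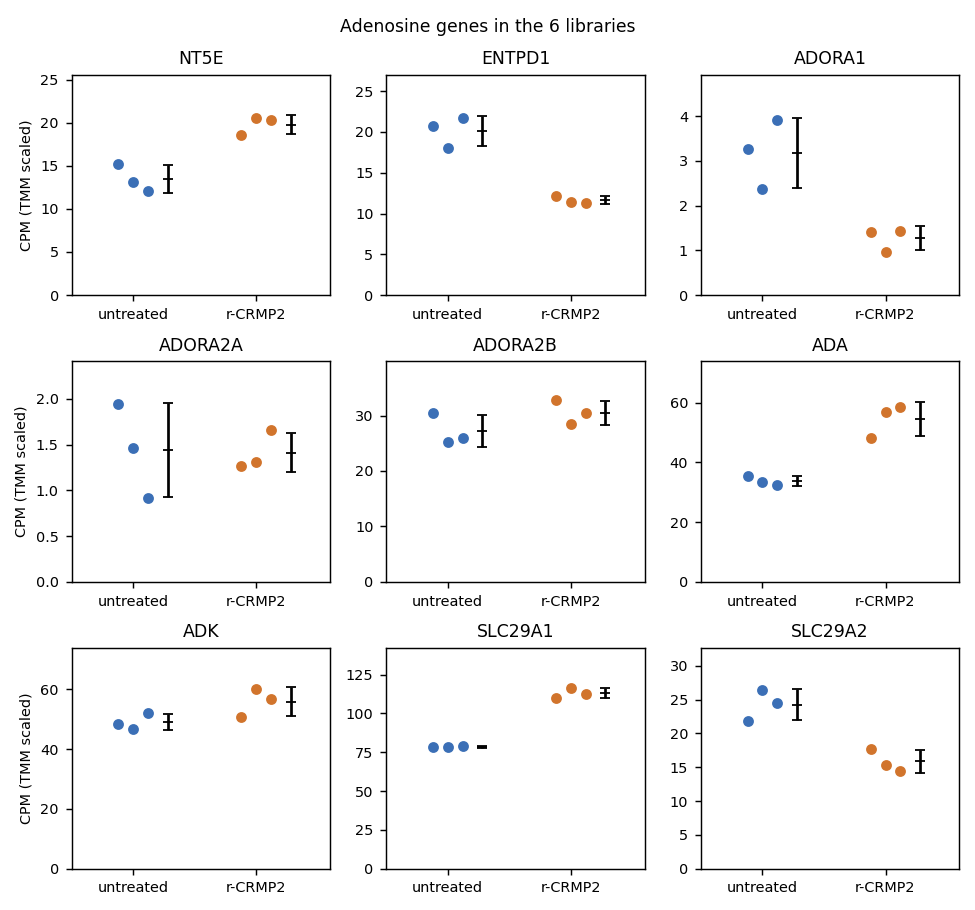
CPM after TMM scaling (vertical axis, from 0) of the 9 adenosine genes in the 3 untreated (blue) and 3 r-CRMP2 (orange) libraries. Points are libraries, and the black bars are the mean and SD of a group. NT5E, ADA and SLC29A1 lay higher and ENTPD1, ADORA1 and SLC29A2 lower in all 3 r-CRMP2 libraries, whereas the groups overlapped for ADORA2A, ADORA2B and ADK.

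Of the enzymes that make adenosine, NT5E carries out the last step. NT5E (chromosome 6, 86159302 to 86205509 in hg19, the build named in the submitters' processing notes) was at 15.2, 13.1 and 12.1 CPM in untreated replicates 1, 2 and 3 and at 18.5, 20.5 and 20.3 CPM in r-CRMP2 replicates 1, 2 and 3. Every treated library was above every untreated library. The means were 13.5 ± 1.61 and 19.8 ± 1.10 CPM (SD, n = 3 per group), and the log2 fold change of 0.56 (SE 0.10, 95% interval 0.34 to 0.77) passed the threshold (edgeR adjusted p = 0.000108). In fits that each left out 1 library, it lay between 0.48 and 0.66.

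The promoter of NT5E is shown because NT5E is a described target of hypoxia-inducible factors and it rose here. These factors are known to bind a short core, so ACGTG and GCGTG were searched on both strands of RefSeq promoters (GRCh38.p14, 250 bases before to 50 after the start). The sequence at chr6:85449833-85450132, on the plus strand, is printed with capitals at its match, which reads GCGTG on the opposite strand.
NT5E promoter: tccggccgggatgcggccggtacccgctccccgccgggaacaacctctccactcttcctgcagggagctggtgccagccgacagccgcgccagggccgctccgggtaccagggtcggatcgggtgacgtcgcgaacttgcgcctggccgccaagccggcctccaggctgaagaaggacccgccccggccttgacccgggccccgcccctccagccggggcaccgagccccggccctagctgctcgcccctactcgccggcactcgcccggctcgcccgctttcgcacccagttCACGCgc
The match began 43 bases after the start. Of all 35116 promoters, 21.4% held ACGTG, 36.5% held GCGTG and 48.4% held either, and a match is a description, not a binding site.

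ENTPD1, which acts before NT5E, went the other way. ENTPD1 (chromosome 10, 97471536 to 97637023) was at 20.7, 18.1 and 21.7 CPM in the untreated libraries and at 12.2, 11.4 and 11.2 CPM in the r-CRMP2 libraries. No treated library reached the lowest untreated one. The means were 20.1 ± 1.85 and 11.6 ± 0.495 CPM (SD, n = 3 per group), and the log2 fold change was -0.80 with a 95% interval of -1.01 to -0.59 (SE 0.10, edgeR adjusted p = 1.34e-06). ENTPD1 overlaps ENTPD1-AS1 on the opposite strand, and the library kit named in the methods does not mark strand, so their reads cannot be told apart where they overlap. ENTPD1-AS1 had between 6 and 22 counts in a library, against 226 to 593 for ENTPD1. An intronic transcript on the same strand, ENSG00000240527.1, had between 5 and 15 counts, and in GENCODE 29 the longest exact stretch that ENTPD1 shares with another gene, AL365273.2, is 174 bases. Of 4 endothelial markers, CDH5 also was lower (log2 fold change -1.96), PECAM1 (-1.41) and VWF (-0.45) did not pass the threshold, and KDR was not tested. The part of these markers in the ENTPD1 result was not tested.

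Because NT5E rose and ENTPD1 fell, the ratio of their TPM within a library was also computed, a choice made after their values were seen. Such a ratio does not depend on the scaling between libraries. NT5E over ENTPD1 was 2.40, 2.35 and 1.81 in untreated replicates 1, 2 and 3 and 4.96, 5.85 and 5.89 in r-CRMP2 replicates 1, 2 and 3. The group means of 2.19 ± 0.325 and 5.57 ± 0.527 (SD, n = 3 per group) differed by 2.55-fold, with an exact two-sided permutation p of 0.1, the smallest that 3 against 3 allows. Since NT5E was higher and ENTPD1 lower in every treated library, in TPM as in CPM, the ratio had to separate the groups. The deposited length of ENTPD1, 13244 bases, lowers its level per length, so the value of the ratio depends on that length and its change between groups does not.

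Of the receptors, ADORA2B was the most abundant per length. ADORA2B (chromosome 17, 15848231 to 15879210) was at 30.5, 25.2 and 26.0 CPM in the untreated libraries and at 32.7, 28.4 and 30.4 CPM in the r-CRMP2 libraries. The groups overlapped, since untreated replicate 1 lay above r-CRMP2 replicates 2 and 3. The means were 27.2 ± 2.82 and 30.5 ± 2.16 CPM (SD, n = 3 per group), and the log2 fold change of 0.16 (95% interval -0.02 to 0.35) did not pass the threshold (adjusted p = 0.119 from the edgeR test). It passed in the fits without untreated replicate 1 (0.25, adjusted p = 0.0264 from edgeR) and without r-CRMP2 replicate 2 (0.22, adjusted p = 0.0419 from edgeR), and over all alternatives its adjusted p lay between 0.0264 and 1.

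The ADORA2B promoter (chr17:15944880-15945179, plus strand, GRCh38.p14) is shown beside that of NT5E because ADORA2B, also a described target of hypoxia-inducible factors, was not called. Capitals mark its GCGTG match.
ADORA2B promoter: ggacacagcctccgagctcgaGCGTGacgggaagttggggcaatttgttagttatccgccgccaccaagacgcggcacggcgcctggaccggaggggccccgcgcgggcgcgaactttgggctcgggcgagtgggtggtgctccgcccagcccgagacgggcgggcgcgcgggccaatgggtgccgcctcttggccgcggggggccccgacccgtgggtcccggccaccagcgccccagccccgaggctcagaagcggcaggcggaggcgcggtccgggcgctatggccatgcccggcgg
Here the match lay 229 bases before the start. Thus both promoters held 1 match of the same core, at different distances, while NT5E passed the threshold and ADORA2B did not, a difference between the genes that was not tested.

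ADORA1, the receptor coupled to inhibitory G proteins, had the largest fitted change of the 9 genes. ADORA1 (chromosome 1, 203096836 to 203136533) had 91, 58 and 107 counts in the untreated libraries and 30, 19 and 33 counts in the r-CRMP2 libraries. In CPM these were 3.27, 2.36 and 3.91 against 1.40, 0.960 and 1.44, with no overlap between the groups. The means were 3.18 ± 0.778 and 1.27 ± 0.266 CPM (SD, n = 3 per group), and the log2 fold change was -1.32 (SE 0.26, edgeR adjusted p = 0.00019). The low counts gave a wide 95% interval, from -1.86 to -0.79, which includes changes smaller than the threshold of 1. In fits that each left out 1 library, the log2 fold change lay between -1.49 and -1.15, and tested against a 2-fold change by edgeR's glmTreat the gene did not pass (adjusted p = 0.415). The 2 antisense transcripts that overlap ADORA1, ENSG00000224671.1 and ENSG00000234775.1, had at most 1 count in any library.

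ADORA2A (chromosome 22, 24819565 to 24838328) had 54, 36 and 25 counts in the untreated libraries and 27, 26 and 38 counts in the r-CRMP2 libraries. The treated libraries lay within the untreated range in CPM. Its means were 1.44 ± 0.514 and 1.41 ± 0.213 CPM (SD, n = 3 per group). The log2 fold change was -0.03 with a 95% interval from -0.66 to 0.61 (adjusted p = 0.948 from the edgeR test). Changes within that interval were thus not excluded. ADORA2A lies within the read-through gene SPECC1L-ADORA2A, with which its GENCODE 29 transcripts share an exact stretch of 2380 bases. SPECC1L-ADORA2A had between 367 and 565 counts in a library, and how reads of the shared stretch were assigned is not given in the sources used here, so the level of ADORA2A is uncertain. ADORA2A-AS1, on the opposite strand, had at most 7 counts in a library.

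Summed over all 4 adenosine receptors, ADORA3 included, ADORA2B made up 90.01%, 91.11% and 89.23% of the TPM in untreated and 95.03%, 95.12% and 93.88% in r-CRMP2 libraries. The share was higher in every treated library, at 94.7% ± 0.692 against 90.1% ± 0.946 (SD, n = 3 per group, exact two-sided permutation p = 0.1, the smallest possible). ADORA1 fell in the same libraries, and ADORA2B itself did not pass the test. The share takes ADORA2A as deposited, so its value is uncertain for the reads shared with SPECC1L-ADORA2A. That gene was at 7.29 to 8.41 TPM in untreated and 5.45 to 6.51 TPM in r-CRMP2 libraries.

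Of the transporters, SLC29A1 rose and SLC29A2 fell. SLC29A1 (chromosome 6, 44187242 to 44201888), the widely expressed equilibrative transporter ENT1, was at 78.3, 78.2 and 79.0 CPM in the untreated libraries and at 110.0, 116 and 113 CPM in the r-CRMP2 libraries. The untreated libraries lay close together, and every treated library was far above them. The means were 78.5 ± 0.450 and 113 ± 3.21 CPM (SD, n = 3 per group), and the log2 fold change was 0.53 with a 95% interval of 0.40 to 0.65 (SE 0.06, edgeR adjusted p = 4.81e-07).

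SLC29A2 (chromosome 11, 66129992 to 66139947), which encodes ENT2, was at 21.9, 26.4 and 24.5 CPM in the untreated libraries and at 17.7, 15.4 and 14.5 CPM in the r-CRMP2 libraries. All 3 treated libraries were below all 3 untreated ones. The means were 24.3 ± 2.26 and 15.9 ± 1.68 CPM (SD, n = 3 per group), and the log2 fold change was -0.61 with a 95% interval of -0.82 to -0.40 (SE 0.10, edgeR adjusted p = 2.85e-05). A noncoding gene on the opposite strand, LOC102724064, overlaps its end and had between 9 and 24 counts in a library.

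Within a library, the ratio of SLC29A1 to SLC29A2 in TPM was 3.46, 2.87 and 3.12 without and 6.01, 7.33 and 7.52 with r-CRMP2. The mean ratio of 3.15 ± 0.299 became 6.95 ± 0.824 (SD, n = 3 per group, exact two-sided permutation p = 0.1), 2.21-fold higher. This ratio had to separate the groups, since SLC29A1 was higher and SLC29A2 lower in every treated library, in TPM as in CPM. It too was chosen after the values were seen. Both transporters share their substrate, and the balance of their transcripts lay further toward SLC29A1 in each treated library.

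**Figure D2:**
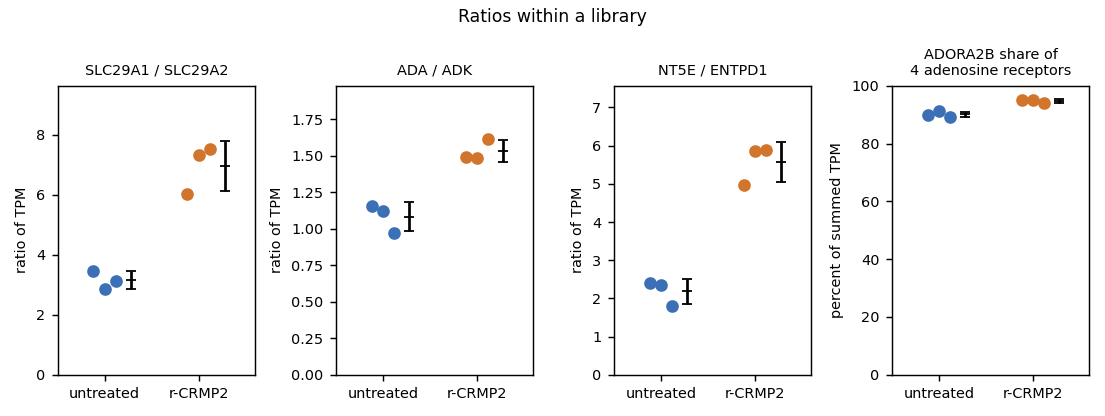
Ratios of TPM within a library (vertical axes, from 0) for SLC29A1 over SLC29A2, ADA over ADK and NT5E over ENTPD1, and the share of ADORA2B in the summed TPM of 4 adenosine receptors, in percent. Points are the 3 untreated (blue) and 3 r-CRMP2 (orange) libraries, bars are mean and SD, and in all 4 panels every r-CRMP2 library lay above every untreated library. The share takes ADORA2A as deposited, and that level is uncertain.

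Of the enzymes that clear adenosine, ADA rose the most among the 9 genes. ADA (chromosome 20, 43248160 to 43280399), adenosine deaminase, was at 35.6, 33.6 and 32.3 CPM in the untreated libraries and at 48.2, 56.8 and 58.6 CPM in the r-CRMP2 libraries. The lowest treated library was well above the highest untreated one. The means were 33.8 ± 1.67 and 54.5 ± 5.58 CPM (SD, n = 3 per group), and the log2 fold change was 0.69 with a 95% interval of 0.52 to 0.86 (SE 0.08, edgeR adjusted p = 5.89e-07). No other gene in the files overlaps ADA, NT5E, ADORA2B or SLC29A1.

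ADK (chromosome 10, 75910943 to 76469061), adenosine kinase, was at 48.3, 46.8 and 52.1 CPM in the untreated libraries and at 50.6, 60.1 and 56.8 CPM in the r-CRMP2 libraries. The groups overlapped, as untreated replicate 3 lay above r-CRMP2 replicate 1. The means were 49.1 ± 2.74 and 55.8 ± 4.85 CPM (SD, n = 3 per group), and the log2 fold change of 0.18 (95% interval 0.03 to 0.34) passed narrowly (adjusted p = 0.0431 from the edgeR test). The call was lost without untreated replicate 1 or 2 (adjusted p = 0.103 and 0.168 from edgeR) and without r-CRMP2 replicate 2 or 3 (adjusted p = 0.118 and 0.112 from edgeR). It was also lost without a low-count filter (adjusted p = 0.0924 from edgeR) and with at least 10 counts in every library (adjusted p = 0.0589 from edgeR). Of 6 genes lying within ADK, mostly pseudogenes and transcripts of the opposite strand, none had more than 11 counts in a library, and the longest exact stretch it shares with another gene, MRPL35P3, is 188 bases.

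Without r-CRMP2, ADA over ADK in TPM was 1.15, 1.12 and 0.969, and with r-CRMP2 it was 1.49, 1.48 and 1.62. The mean ratio of 1.08 ± 0.0988 became 1.53 ± 0.0754 (SD, n = 3 per group, exact two-sided permutation p = 0.1). The deaminase and the kinase were thus at similar levels without r-CRMP2, and the deaminase was higher than the kinase in each treated library. In TPM, ADA was higher and ADK lower in every treated library, so this ratio had to separate the groups. The 4 ratios described here were the ones computed, all chosen after the values were seen, and their p-values remained 0.1 after Benjamini-Hochberg adjustment.

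Of the 13 RefSeq promoters found for 7 of the 9 genes, 6 held either core, close to the share among all promoters. No promoter was matched for ADORA2A or SLC29A2. The remaining matches are shown with their surroundings, in the orientation of the gene and with the core in capitals, because they lie in promoters of genes that rose (ADA, SLC29A1), fell (ENTPD1) or changed little (ADK).
ADA, 21 bases before the start: taagaagaGCGTGgccggccg
SLC29A1, 245 bases before the start: cagtgCACGTGctcccag
ENTPD1, 224 bases before the start: ttgccagaGCGTGggtgggag
ENTPD1, 185 bases before the start: cgccatccGCGTGcctcttct
ADK, 137 bases before the start: gcacgagaCACGCggtggccc
ADK, 59 bases before the start: ccaatcagCACGCcgggccgg
The SLC29A1 match is a palindrome that reads ACGTG on both strands, and those of ADK lie on the opposite strand. Matches thus occurred in promoters of genes that were higher and of a gene that was lower. Both ENTPD1 matches lie in the same promoter (chr10:95693935-95694234), and its other listed promoters held none. Whether that promoter serves the transcripts counted here was not tested. SLC29A1 and ADK also each had a promoter without a match. The ADORA1 promoter held no match in this window.

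**Figure D3:**
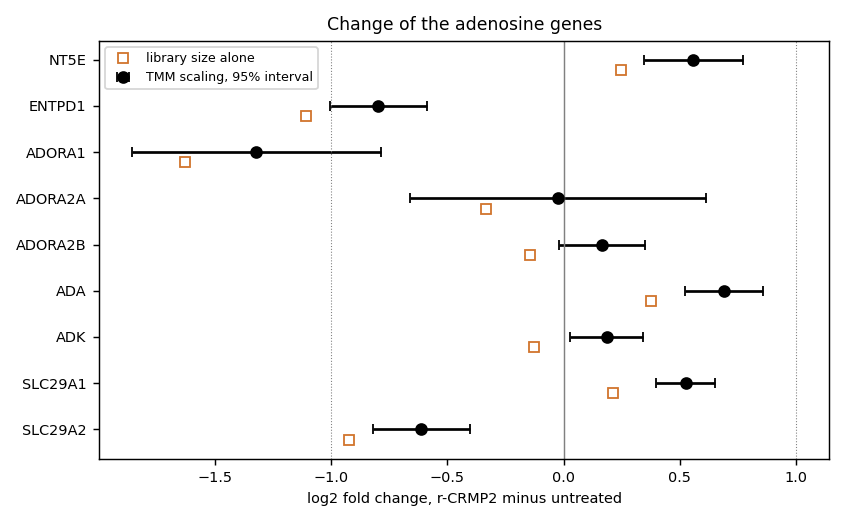
Log2 fold change (horizontal axis, r-CRMP2 minus untreated) of the 9 adenosine genes. Black points with bars are edgeR estimates with TMM scaling and their 95% intervals, open squares are estimates with library size alone, and dotted lines mark -1 and 1. The squares of NT5E, ENTPD1, ADORA1, ADA, SLC29A1 and SLC29A2 lie on the same side of 0 as their points, whereas those of ADK and ADORA2B fall on the other side.

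Levels of different genes were compared per length, by deposited TPM. In untreated cells the order of mean TPM was SLC29A1 (64.1), ADA (52.9), ADK (49.0), ADORA2B (35.2), SLC29A2 (20.5), NT5E (8.05), ENTPD1 (3.71), ADORA1 (2.65) and ADORA2A (1.18). Of these neighbours, ADA and ADK overlapped in range, and the others did not. In r-CRMP2-treated cells the order was SLC29A1 (73.6), ADA (67.9), ADK (44.4), ADORA2B (31.5), SLC29A2 (10.7), NT5E (9.45), ENTPD1 (1.71), ADORA2A (0.928) and ADORA1 (0.849). There SLC29A1 and ADA overlapped, as did ADORA2A and ADORA1, which had changed places, and the lowest SLC29A2 value (9.82) was barely above the highest NT5E value (9.81). Transcripts of the transporters and clearing enzymes were thus more abundant per length than those of NT5E and ENTPD1 in both groups. TPM is scaled within a library and not by TMM, and mean TPM of ADK and ADORA2B was lower with r-CRMP2 while mean CPM was higher.

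Over the 6 libraries, the genes whose log2 CPM was most like that of NT5E were PDP2, ATP1B1 and PITPNC1, with Pearson's r of 0.999, 0.997 and 0.996 among 9394 genes with a mean of at least 10 CPM. For ADORA2B they were FBLIM1, POLG2 and GRAMD1B, with r of 0.984, 0.980 and 0.980. These genes were picked as the highest among 9394 over only 6 libraries, so high values follow in part from the picking. Likeness was taken over both groups, so these genes share the group difference of the gene they were picked for. That NT5E and its genes passed the threshold between the 2 groups, and ADORA2B and its genes did not, thus follows from the picking. The values only describe likeness.

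Other genes of purine handling and cAMP signalling were taken from a list of 87 genes, of which 56 were tested. Of these, 19 were higher and 15 lower, with a median log2 fold change of 0.10, beside 28.2% higher and 30.1% lower over all genes tested, and 1 was higher and 3 lower past both thresholds. With library size alone 8 were higher and 27 lower, so the balance of directions rested on the scaling. The counts of the 7 groups that follow are descriptions to be read against the same 28.2% and 30.1%, and no group was tested against the other genes.

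Among 4 tested genes for ATP release, 3 were higher and none lower (28.2% and 30.1% of all genes tested). The largest change was in PANX1, a channel that releases ATP (log2 fold change 0.37, adjusted p = 0.00102 from edgeR). With library size alone none of the 4 passed, and PANX2 and LRRC8A had values just below 0.

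Among 5 tested ectonucleotidases other than the members, 2 were higher and none lower, and with library size alone 2 were higher and 2 lower. ENTPD2, a relative of ENTPD1 that prefers ATP over ADP, was at 13.6, 11.3 and 10.3 CPM in the untreated libraries and at 20.5, 23.3 and 19.4 CPM in the r-CRMP2 libraries. All treated libraries were higher, with a log2 fold change of 0.84 (SE 0.11, edgeR adjusted p = 2.48e-06), opposite in direction to ENTPD1. With library size alone ENTPD2 was also higher (0.53, adjusted p = 0.000447 from edgeR). In TPM, ENTPD2 stood above ENTPD1 in both groups (13.6 against 3.71 in untreated and 19.4 against 1.71 in treated cells). The order in untreated cells rests on the deposited lengths, 2101 bases for ENTPD2 and 13244 for ENTPD1. In mean CPM, not corrected for length, ENTPD2 was below ENTPD1 in untreated cells (11.7 against 20.1). It was above ENTPD1 in treated cells (21.0 against 11.6).

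ALPI, the intestinal alkaline phosphatase, was singled out after its values were seen. Alkaline phosphatases can release phosphate from AMP outside the cell, as NT5E does. ALPI (chromosome 2, 233320822 to 233325455) was at 2808, 2664 and 2455 TPM in the untreated libraries and at 3192, 3116 and 3286 TPM in the r-CRMP2 libraries. These levels were 313 to 346 times those of NT5E, and between 41 and 47 in the order of all genes of a library by TPM. So high a level is unusual for an ovarian cell line, and the reads behind it were not examined here, so the level is given with that doubt. ALPI was higher with r-CRMP2 (log2 fold change 0.60, SE 0.07, edgeR adjusted p = 5.23e-07). In a search of all GENCODE 29 transcripts, its own share no exact stretch of 100 bases or more with other genes, and the related ALPP, ALPPL2 and ALPL had at most 112 counts in any library.

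Among 11 tested intracellular nucleotidases and purine enzymes, 4 were higher and 2 lower, shares not far from those of all genes. AMPD3, an AMP deaminase, had the largest change (log2 fold change 0.70, adjusted p = 0.000127 from edgeR). With library size alone 2 were higher and 6 lower, and AMPD3 was among those higher (0.39).

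Of the 4 other genes of transport and deamination tested, none was higher and 2 were lower, under either scaling. SLC29A3, a nucleoside transporter of intracellular membranes, had 91, 85 and 118 counts in the untreated libraries and 32, 19 and 12 counts in the r-CRMP2 libraries. The groups were far apart, with a log2 fold change of -1.90 (SE 0.28, edgeR adjusted p = 1.1e-05). It moved in the direction of SLC29A2 and against that of SLC29A1.

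Among 7 other purinergic receptors tested, none was higher and 4 were lower (28.2% and 30.1% of all genes tested), with a median log2 fold change of -0.53, and with library size alone 0 were higher and 5 lower. P2RY6, a receptor for UDP, fell from 27.3 ± 1.59 to 12.8 ± 0.941 CPM (log2 fold change -1.09, SE 0.09, edgeR adjusted p = 7.45e-09). P2RX6, a subunit of ATP-gated channels, fell from 2.49 ± 0.937 to 0.796 ± 0.330 CPM (log2 fold change -1.65, SE 0.34, edgeR adjusted p = 0.000323). ADORA3, the remaining adenosine receptor, had at most 1 count in any library and was not tested.

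Among 20 tested genes of cAMP signalling, 7 were higher and 6 lower, close to the shares of all genes, with none past both thresholds, and with library size alone 2 were higher and 11 lower. PRKACB, a catalytic subunit of protein kinase A, had the largest change (log2 fold change -0.69, SE 0.11, edgeR adjusted p = 1.69e-05). The G protein genes GNAS, GNAI1, GNAI2 and GNAI3 had log2 fold changes between 0.42 and 0.54, and with library size alone GNAS and GNAI3 still passed the threshold and GNAI1 and GNAI2 did not. Of 5 genes often raised by cAMP, 3 were higher and 1 lower, against 2 and 1 with library size alone. SIK1, a kinase that restrains CREB coactivators, rose from 519 ± 18.6 to 1243 ± 96.6 CPM (log2 fold change 1.26, SE 0.07, edgeR adjusted p = 1.88e-11). NR4A1 was lower (-0.79) and NR4A2 higher (0.66), and FOS did not pass the threshold.

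**Figure D4:**
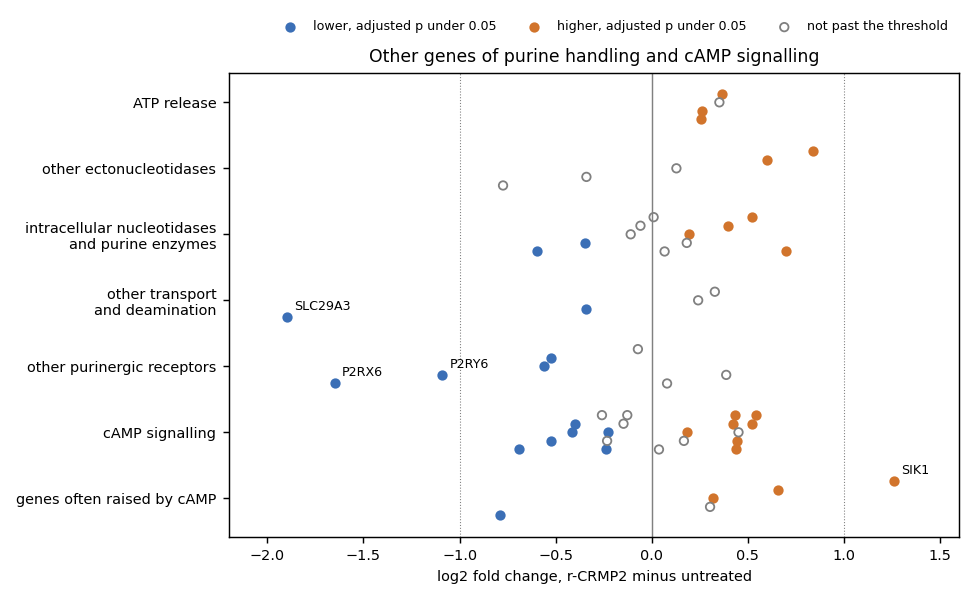
Log2 fold change (horizontal axis, r-CRMP2 minus untreated, TMM scaling) of the 56 tested genes of the purine and cAMP list, in 7 groups (vertical axis, spread within a group only for legibility). Filled points passed the adjusted p-value threshold (orange higher, blue lower), open points did not, and the named points (SLC29A3, P2RX6, P2RY6 and SIK1) lay beyond -1 or 1.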

How the data were processed

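Poly(A) RNA of 3 untreated and 3 r-CRMP2-treated A2780 samples was sequenced from NEBNext Ultra RNA libraries, a kit that does not mark strand, with paired-end reads. The authors deposited raw counts per gene and TPM values for each library. The submitters' processing notes name FastQC, HISAT2, DESeq2 and hg19, and the counting tool and annotation are not given in the sources used here. TPM recomputed from counts and deposited lengths matched the deposited TPM to 4.72e-06, so the counts were tested and TPM served for levels between genes. The 4 ratios within libraries were compared by exact permutation and chosen after the values were seen. Promoters are from RefSeq (GRCh38.p14), and shared stretches of at least 100 bases were searched in GENCODE 29 transcripts. Groups came from the sample titles. Counts were fitted with edgeR 4.0.16 (R 4.3.3, limma 3.58.1) by the quasi-likelihood test after TMM scaling and edgeR's low-count filter, which left 16222 of 44591 genes. The threshold was an adjusted p-value of 0.05 (Benjamini-Hochberg), with a log2 fold change of 1 where stated. Standard errors are the log2 fold change divided by the root of its F statistic, and intervals use the same error. Log2 CPM had a prior count of 2. The fit was run on simulated data with 200 genes changed, far fewer than were called here. That check says nothing about the scaling of these data. Replicate libraries differed by more than sampling noise (chi-square over degrees of freedom from 3.62 to 10.3), so none was counted as a duplicate.

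Alternatives were RLE size factors, library size alone, DESeq2 1.42.0, a minimum of 10 counts in every library, no low-count filter, a replicate block, glmTreat against a 2-fold change, and leaving out each library. The genes named are the 9 members, genes overlapping them, and, of the hand-written list, those past both thresholds or with the largest change past the adjusted p-value in a group. ALPI, ADORA3 and a few further genes of the list were named after their values were seen. The members and lists were chosen with earlier results of these data known.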

Additional observations from a re-analysis of the deposited data

How the results depend on the processing

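NT5E, ADA and SLC29A1 stayed higher and ENTPD1, ADORA1 and SLC29A2 lower under every alternative run, and each of the 6 passed the adjusted p-value threshold in all of them except the glmTreat test against a 2-fold change. Library size alone moved the counts over all genes to 2171 higher and 8449 lower at the adjusted p-value, and to 489 and 2553 past both thresholds. It left 2 adenosine genes lower past both thresholds, ADORA1 and ENTPD1. Of the purine and cAMP list it left 8 higher and 27 lower at the adjusted p-value, and 0 and 6 past both thresholds. Tested against a 2-fold change, 369 genes were higher and 467 lower, with 0 and 0 adenosine genes and 1 and 1 genes of the list. With at least 10 counts in every library, 946 genes were lower past both thresholds, and without a low-count filter 2 genes of the list were higher past both. Fewer genes were tested with the stricter filter, and the cause of the other shifts was not tested.

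The log2 fold changes of ADK and ADORA2B turned with library size alone (-0.13 and -0.14). That of ADORA2A, which did not pass under any alternative, was -0.33 with library size alone and turned with the replicate block (0.0068) and without untreated replicate 1 (0.26), r-CRMP2 replicate 1 (0.06) or r-CRMP2 replicate 2 (0.03), over a range from -0.27 to 0.26 when 1 library was left out. Of 117 values of the 9 genes, 96 kept direction and side of the threshold, 13 lost it, 2 gained it and 6 turned. The labels number replicates 1 to 3 in both groups, but same-numbered libraries did not deviate together (correlations of -0.02, 0.0038 and -0.03). That showed no pairing, though with 3 libraries per group it cannot exclude one. With the replicate block, 4456 genes were higher and 4774 lower, and 4 adenosine genes were higher and 3 lower, with no call among the 9 changed (ADK at adjusted p = 0.0498 from edgeR). Between 19 and 107 counts lay behind each ADORA1 value and 25 to 54 behind each ADORA2A value, which limits both.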
